A study of Ovis aries with 32 samples.

Results

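RNA was sequenced from perirenal preadipocytes of near-term fetal sheep and from adipocytes differentiated from such cells in culture, and the transcripts of the secreted and membrane-bound metalloproteases and of their inhibitors are described here. The genes were taken by name, as every MMP (matrix metalloproteinase), TIMP (tissue inhibitor of metalloproteinases), ADAMTS, ADAMTSL and ADAM gene followed by a number in the deposited table. Among the 21271 genes of the table, 54 carried such a name. Of these, 37 reached a normalized read count of 10 in at least 4 of the 32 libraries and are called members below, 16 stayed below this filter and 1, MMP8, was listed at 0 throughout. Levels are normalized read counts summed over the transcripts of a gene, and neither protein nor enzyme activity was measured. No entry carried the name TIMP4, so its level could not be assessed.

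The 8 groups held 4 libraries each. Preadipocytes came from control males (MC), control females (FC), males with fetal growth restriction (MFGR) and females with fetal growth restriction (FFGR). The groups MCD, FCD, MFGRD and FFGRD were adipocytes differentiated from the same 4 kinds of fetus. All fetuses were singletons of crossbred Columbia-Rambouillet ewes. Growth restriction followed from keeping the pregnant ewes in a hot environment, which limits placental function, whereas control ewes were kept cool and pair-fed. No animal numbers are attached to the libraries, so the p-values measure the spread between these libraries, which may be technical in part.

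Matrix metalloproteases depend on zinc and cut collagens, proteoglycans and other proteins of the pericellular space. MMPs and ADAMTS enzymes act mainly on the matrix, ADAMs release the outer parts of membrane proteins, and ADAMTSL proteins resemble ADAMTS enzymes but lack the protease part. TIMPs bind the active site of these enzymes. In adipose tissue, a preadipocyte that fills with lipid exchanges a fibrillar matrix for a basement membrane, and the membrane-type enzyme MMP14 is known to be needed for the growth of white fat.

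With differentiation, averaged over the 4 kinds of fetus, 18 of the 37 members were called, 9 upward and 9 downward, beside 27.2% of all 12737 genes tested (12.4% upward and 14.8% downward). Among the called members, MMP9 (downward) and ADAMTS12 (upward) passed the filter only through the stage where they were higher, so the filter favoured their direction. A gene was called at an adjusted p below 0.05 in limma with a change of more than 1.5-fold, and changes are log2 fold changes of the level plus 1, given with their standard error (SE). The inhibitors parted, since TIMP1 and TIMP2 were downregulated and TIMP3 was upregulated. ADAMTS4, ADAMTS17 and MMP15 were upregulated, with log2 fold changes of 2.47, 2.41 and 1.97, and ADAMTS10 was downregulated the most, with -3.56. The genes that are usually the best known of the family, MMP2, MMP14, ADAM10 and ADAM17, were not called. Growth restriction and sex gave 0 calls at either stage in this limma fit of gene sums, among the members and among all 12737 genes. The study itself, with DESeq2 at the same limits, lists genes that differed by sex in each single-group comparison of males and females.

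The values of a library summed to between 9.52 and 21.22 M (M, mega), from about 7.79 to 21.3 M reads, and 1 read was worth a value of about 0.696 to 1.80, so values below 10 rest on few reads. Among 7 markers of mature adipocytes tested, 7 were upregulated with differentiation. FCD replicate 4 was the exception, with ADIPOQ (adiponectin) at 8.59 against 146 to 13420 in the other 15 differentiated libraries, FABP4 (a fatty acid binding protein) at 215 against 3366 to 167600 and PLIN1 (a lipid droplet protein) at 19.0 against 124 to 5936. These 3 values lay inside the preadipocyte ranges (0 to 216 for ADIPOQ, 1.56 to 444.5 for FABP4 and 9.62 to 35.7 for PLIN1), so these markers go against the label of this library, and the counts of called members are also given without it. Of the fibroblast markers 1 was upregulated (THY1) and 3 were downregulated (PDGFRB, DCN and LUM), and DLK1 was below the filter. Of the 3 leukocyte markers tested, CD14 and CD163 were upregulated and CD68 was downregulated, of 5 mural markers MCAM was upregulated and DES and CSPG4 were downregulated, of 4 endothelial markers KDR was downregulated, of 3 mesothelial markers none was called, and the erythroid markers HBB and ALAS2 were below the filter. FFGR replicate 4 held the leukocyte markers PTPRC at 55.8, AIF1 at 37.6 and CSF1R at 36.3, above the highest value in the other 31 libraries of 4.45, 19.0 and 22.0. Other markers of the same list were not highest there, with CD14 at 61.9 (up to 699 elsewhere) and CD68 at 300.9 (up to 513). In bulk RNA, fewer cells of a type and less RNA per cell cannot be told apart, and the part of other cell types in the results was not tested.

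In 9 libraries the level of a transcript fell with the length of genome it spans more steeply than elsewhere. The slope of log2 level on log2 span, fitted across transcripts within a library, was between -0.452 and -0.255 in FC2, FCD2, FFGR2, FFGR3, FFGRD3, MCD2, MCD4, MFGR1 and MFGRD1 (group and replicate number), and -0.171 or higher in the other libraries. The 9 libraries were 4 of preadipocytes and 5 of differentiated cells, and in male controls both (MCD2 and MCD4) were on the differentiated side, with a median slope of -0.05 in MC and -0.19 in MCD. Without the 9 libraries, the changes in male controls were 1.59 for MMP15 (adjusted p = 0.0665) and 1.998 for ADAMTS4 (adjusted p = 0.0582), and both calls were lost there. Several members followed this slope closely, which is shown after the comparisons.

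The members lie on many chromosomes of the Oar_rambouillet_v1.0 assembly. A run of 7 entries with MMP names spans positions 6005679 to 6519492 of chromosome 15 (MMP12, MMP1, MMP8, MMP27, MMP20 and 2 entries named MMP7), and only MMP1 among them passed the filter. A run of 4 ADAM genes spans 37082827 to 38304934 of chromosome 26, in which ADAM9 and ADAM32 passed and ADAM2 and ADAM18 did not. The other entries below the filter were ADAM7, ADAM11, ADAM22, ADAM23, ADAM29, ADAM30, ADAMTS19, ADAMTSL2 and MMP25. TIMP1 lies inside SYN1 and ADAMTS14 inside PALD1, genes that also passed the filter, and whether reads were shared with these was not tested.

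The tissue inhibitors were the first group. TIMP1, a secreted inhibitor of most MMPs, lies at 59542357 to 59545885 of chromosome X. In MC, TIMP1 was at 9885, 10480, 9969 and 20550, and in MCD at 2946, 6103, 580.2 and 6012. In FC, TIMP1 was at 20790, 27700, 6801 and 5196, and in FCD at 9818, 7236, 1286 and 3246. The 2 stages were apart in male controls and overlapped in female controls. In MFGR, TIMP1 was at 16320, 6153, 14440 and 3882, and in MFGRD at 5336, 1510, 4905 and 1824. In FFGR, TIMP1 was at 23650, 25400, 8394 and 3786, and in FFGRD at 747, 904, 6975 and 1479. Among growth-restricted animals both pairs of groups overlapped, since MFGR replicate 4 was below MFGRD replicate 1 and FFGR replicate 4 below FFGRD replicate 3. Over the 4 comparisons TIMP1 was downregulated with a mean log2 fold change of -2.01 ± 0.41 (SE, n = 16 libraries per stage, adjusted p = 3.19e-04), and alone it passed in FFGRD against FFGR (-2.85 ± 0.81, adjusted p = 0.0231).

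TIMP2 inhibits MMPs and also forms the complex through which MMP14 activates the proenzyme of MMP2, and its gene lies at 9758822 to 9810613 of chromosome 11. In MC, TIMP2 was at 7256, 6282, 9964 and 15720, and in MCD at 2704, 5297, 1706 and 7511. In FC, TIMP2 was at 8309, 17060, 9287 and 11360, and in FCD at 4267, 3834, 2193 and 4407. The stages overlapped in male controls, where MCD replicate 4 exceeded MC replicates 1 and 2, and not in female controls. In MFGR, TIMP2 was at 12280, 10420, 5438 and 10840, and in MFGRD at 3997, 2802, 3336 and 4331. In FFGR, TIMP2 was at 8573, 14100, 11020 and 7222, and in FFGRD at 3302, 1650, 3881 and 1857. Every growth-restricted preadipocyte library was above every growth-restricted differentiated library. TIMP2 was called in all 4 comparisons, at log2 fold changes of -1.32 in male controls, -1.64 in female controls, -1.39 in growth-restricted males and -1.98 in growth-restricted females. Its mean change was -1.58 ± 0.20 (adjusted p = 7.44e-07).

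TIMP3 is the inhibitor that stays bound to the matrix and also blocks ADAM17 and aggrecan-cleaving ADAMTS enzymes. It lies at 189199623 to 189254705 of chromosome 3. In MC, TIMP3 was at 839.7, 464, 436 and 1013, and in MCD at 2729, 6941, 3881 and 6262. In FC, TIMP3 was at 1406, 390.3, 1134 and 657, and in FCD at 1238, 3000, 2447 and 755. All MCD values were above all MC values, and those of FC and FCD overlapped. In MFGR, TIMP3 was at 831, 568, 498 and 662, and in MFGRD at 4421, 2469, 2431 and 1193. In FFGR, TIMP3 was at 706, 236, 1015 and 2245, and in FFGRD at 3357, 6295, 1700 and 2174. The growth-restricted males were apart by stage, and the females overlapped through FFGR replicate 4. The change was upward, by 1.92 ± 0.28 on average (adjusted p = 5.26e-06), and was called in male controls (2.85), growth-restricted males (1.92) and growth-restricted females (1.92). In female controls it was 1.02 ± 0.56 (adjusted p = 0.411).

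**Figure D1:**
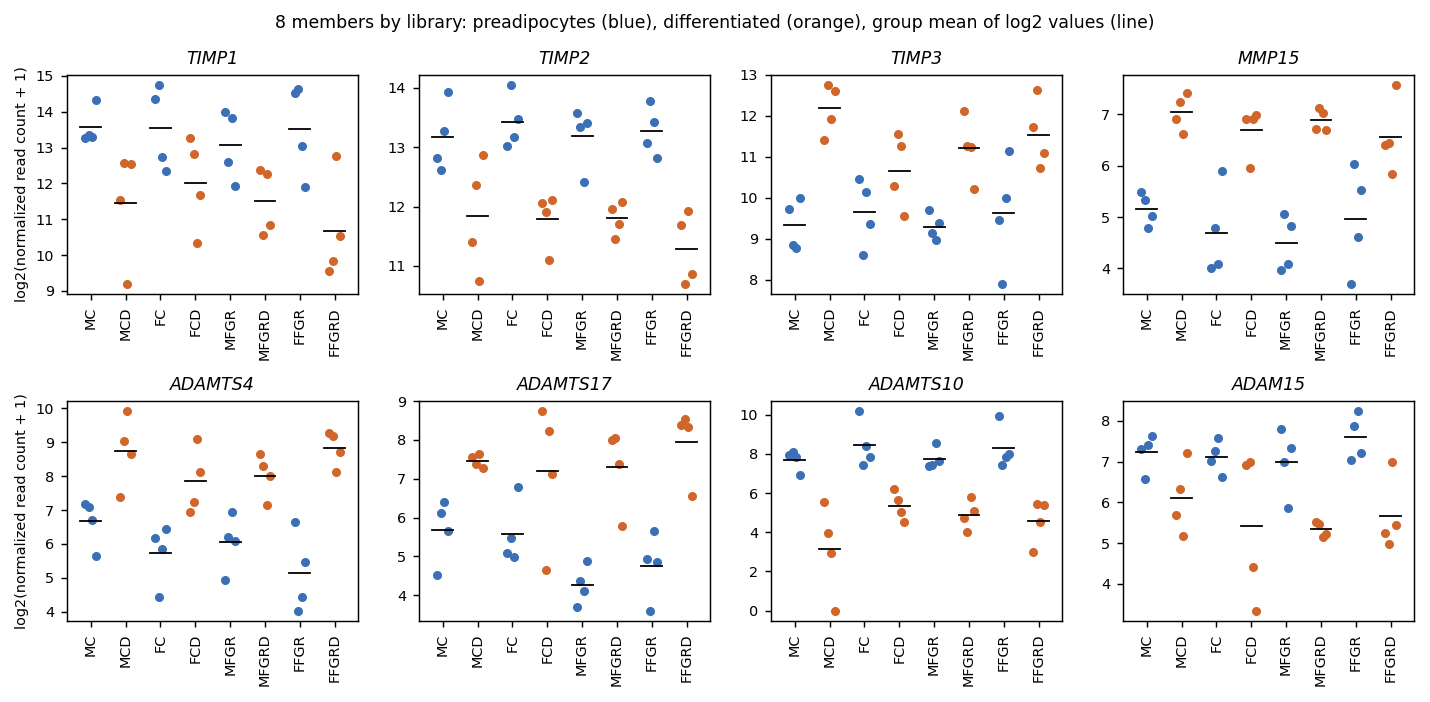
Level of 8 members, as log2(normalized read count + 1), in each of the 32 libraries by group, with preadipocytes in blue, differentiated adipocytes in orange and the mean of each group as a line. TIMP1, TIMP2, ADAMTS10 and ADAM15 sit lower and TIMP3, MMP15, ADAMTS4 and ADAMTS17 higher after differentiation, and the 16 libraries of each stage do not overlap for ADAMTS10 alone.

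Of the secreted MMPs listed, only MMP1, MMP2, MMP9 and MMP28 passed the filter. No entry carried the name MMP3, MMP10, MMP11 or MMP13, so nothing can be said here about the levels of these genes. MMP1, a collagenase that cuts fibrillar collagen, was in a wide range of 1.4 to 2288 (median 39.9) in preadipocytes and 0 to 2017 (median 6.72) in differentiated adipocytes. The highest values came from MFGR replicate 4 (2288) before and FCD replicate 2 (2017) after differentiation, and 2 of the differentiated libraries were at 0. MMP1 was downregulated on average (-2.60 ± 0.91, adjusted p = 0.0270), it was called in none of the single comparisons, and without MFGR replicate 4 the change was -2.20 with an adjusted p of 0.0506.

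The gelatinases MMP2 and MMP9 cut denatured and basement membrane collagen. MMP9 was low throughout. In MC, MMP9 was at 12.2, 31.5, 11.2 and 5.74, and in MCD at 4.49, 2.94, 0.844 and 1.17. In FC, MMP9 was at 8.26, 8.92, 2.98 and 1.54, and in FCD at 4.55, 5.801, 2.15 and 0.705. Male controls were apart by stage and female controls overlapped. In MFGR, MMP9 was at 3.49, 2.17, 13.6 and 4.23, and in MFGRD at 1.798, 0, 0 and 1.72. In FFGR, MMP9 was at 76.5, 0, 3.77 and 1.52, and in FFGRD at 0.791, 0.778, 1.17 and 1.495. FFGR held both the highest library, replicate 1, and a library at 0, replicate 2. The mean change was -1.49 ± 0.43 (adjusted p = 0.00875). MMP9 passed the filter through preadipocytes alone, since 5 of these libraries and no differentiated library reached 10, so a decrease was the direction it could most readily show.

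MMP2 lay between 24520 to 123000 (median 59290) in preadipocytes and between 21690 to 107000 (median 68240) in differentiated adipocytes. Its mean log2 fold change was 0.14 ± 0.23 (adjusted p = 0.695), with a 95% interval of -0.32 to 0.60, so that a change above the fold limit of 1.5 upward was just within the interval. MMP28, a more recently described secreted MMP, was at 17.3 to 178 (median 85.7) before and 11.3 to 312 (median 56.2) after differentiation. Its change was 1.41 in male controls and between -1.38 and -0.77 in the other 3 comparisons, and none passed.

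Membrane-type MMPs act at the cell surface, and 5 of the 6 listed passed the filter. MMP15, which like MMP14 can activate MMP2, lies at 27542102 to 27561128 of chromosome 14. In MC, MMP15 was at 44.1, 39.5, 26.5 and 31.5, and in MCD at 119, 149.6, 96.4 and 169. In FC, MMP15 was at 15.1, 26.8, 15.9 and 58.7, and in FCD at 119.8, 60.8, 119 and 126. Each control pair was apart by stage, by a narrow margin in females (FC replicate 4 against FCD replicate 2). In MFGR, MMP15 was at 14.6, 32.5, 16.1 and 27.4, and in MFGRD at 104, 138, 129 and 103. In FFGR, MMP15 was at 11.9, 64.2, 23.6 and 44.8, and in FFGRD at 83.2, 85.7, 56.3 and 190. The males were apart again, and the females overlapped because FFGRD replicate 3 was below FFGR replicate 2. MMP15 was upregulated in all 4 comparisons, by 1.88 in male controls, 1.996 in female controls, 2.40 in growth-restricted males and 1.60 in growth-restricted females. The mean was 1.97 ± 0.23 (adjusted p = 1.39e-07), and 14 of 16 differentiated libraries lay above every preadipocyte library.

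MMP14, which cuts fibrillar collagen at the surface, was at 4198 to 20580 (median 7277) in preadipocytes and 2558 to 14730 (median 5849) after differentiation. The 2 ranges shared most of their width. Its mean change was -0.38 ± 0.23 (adjusted p = 0.230, 95% interval -0.86 to 0.10). MMP16 (0.53), MMP17 (-0.34) and MMP24 (0.36) were not called either, and MMP17 reached a level of 10 in 4 preadipocyte libraries and in no differentiated library.

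Among the ADAMTS enzymes that cut aggrecan, versican and other proteoglycans, ADAMTS4, ADAMTS9 and ADAMTS20 were upregulated, and ADAMTS1 and ADAMTS15 did not pass. ADAMTS5 and ADAMTS8 were not among the named entries and could not be assessed. ADAMTS4 lies at 119704827 to 119711953 of chromosome 1. In MC, ADAMTS4 was at 144, 136, 104 and 48.9, and in MCD at 166, 525, 975 and 402. In FC, ADAMTS4 was at 71.6, 20.4, 56.7 and 84.9, and in FCD at 122, 151, 546 and 277. Neither control pair overlapped. In MFGR, ADAMTS4 was at 29.3, 72.9, 123 and 66.8, and in MFGRD at 399, 313, 141 and 253. In FFGR, ADAMTS4 was at 98.4, 15.3, 20.7 and 43.1, and in FFGRD at 614, 582, 276 and 422. The growth-restricted pairs did not overlap either, and ADAMTS4 was the only upregulated member of which this held in each of the 4 kinds of fetus, although across all 32 libraries 3 preadipocyte libraries exceeded the lowest differentiated value. The mean change was 2.47 ± 0.30 (adjusted p = 3.09e-07). ADAMTS4 passed in male controls (2.09) and growth-restricted females (3.68) and missed narrowly in female controls (2.13, adjusted p = 0.0520) and growth-restricted males (1.98, adjusted p = 0.0516).

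ADAMTS20 is a large enzyme that cuts versican. In MC, ADAMTS20 was at 12.3, 84.8, 24.6 and 1.44, and in MCD at 27.1, 67.8, 71.2 and 5.83. In FC, ADAMTS20 was at 2.76, 0, 0 and 26.2, and in FCD at 6.79, 19.4, 7.55 and 61.8. The levels were low and differed within groups as much as between them. In MFGR, ADAMTS20 was at 1.396, 24.01, 26.2 and 22.4, and in MFGRD at 35.8, 27.7, 29.4 and 26.7. In FFGR, ADAMTS20 was at 0.844, 8.32, 0.939 and 7.54, and in FFGRD at 60.5, 44.97, 5.84 and 5.21. Only the growth-restricted males were apart by stage. The mean change was 1.67 ± 0.56 (adjusted p = 0.0219), and it did not pass with the single largest transcript of the gene in place of the sum (0.84, adjusted p = 0.491).

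ADAMTS9, a secreted enzyme that cuts versican and aggrecan, was at 69.4 to 4114 (median 1007) in preadipocytes and 306 to 5867 (median 2607) after differentiation. The response was near 0 in male controls (-0.14) and between 1.88 and 2.28 in the other comparisons, with a mean of 1.55 ± 0.55 (adjusted p = 0.0304). The call was lost in 8 of the 32 fits that left out 1 library (MC 4, MCD 1, MFGR 1, MFGRD 3, FC 2, FFGR 2, FFGR 3 and FFGRD 4), at changes from 1.33 to 1.77 over the 32. ADAMTS1 changed by 0.95 ± 0.46 (adjusted p = 0.119) and ADAMTS15 by 0.94 ± 0.49 (adjusted p = 0.147).

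The procollagen N-proteinases, which remove the N-terminal part of fibrillar procollagens, all passed the filter and none was called. ADAMTS2 was at 2105 to 4402 (median 2565) before and 1484 to 5734 (median 2516) after differentiation, with a mean change of -0.0025 ± 0.18 (95% interval -0.37 to 0.37). A change of 1.5-fold in either direction lay outside this interval. ADAMTS3 changed by 0.60 ± 0.50 and ADAMTS14 by -1.38 ± 0.58 (adjusted p = 0.0669), and ADAMTS14 was called under several alternatives, ADAMTS3 under fewer.

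The enzymes ADAMTS10 and ADAMTS17 are known from inherited short stature with eye lens defects and are linked to fibrillin microfibrils, and their transcripts moved in opposite directions. ADAMTS10 lies at 15480996 to 15498375 of chromosome 5. In MC, ADAMTS10 was at 246, 275, 225 and 119, and in MCD at 46.1, 14.7, 6.72 and 0. In FC, ADAMTS10 was at 1174, 169, 340.4 and 232, and in FCD at 71.8, 48.4, 32.3 and 21.8. In neither sex did a differentiated control reach a control preadipocyte library. In MFGR, ADAMTS10 was at 165, 173, 379 and 195, and in MFGRD at 25.1, 15.1, 55.7 and 32.7. In FFGR, ADAMTS10 was at 960.4, 174, 225 and 256, and in FFGRD at 7.097, 41.9, 22.2 and 40.3. Across all libraries the lowest preadipocyte value (119) exceeded the highest differentiated value (71.8), which was the case for 1 of the 37 members and for 1.09% of all genes. The mean change was -3.56 ± 0.40 (adjusted p = 9.88e-08), with -4.58 in male controls, -3.13 in female controls, -2.85 in growth-restricted males and -3.71 in growth-restricted females, and all 4 were called. The value in male controls was -3.54 without MCD replicate 4, the library at 0, and -5.39 without MCD replicate 1.

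ADAMTS17 lies at 6053494 to 6442859 of chromosome 18. In MC, ADAMTS17 was at 22.04, 68.2, 82.9 and 48.9, and in MCD at 187, 166, 198 and 155. In FC, ADAMTS17 was at 33.1, 43.3, 30.9 and 109.5, and in FCD at 429.6, 24.2, 299.6 and 138. FCD replicate 2 was below all FC libraries, while MC and MCD were apart. In MFGR, ADAMTS17 was at 11.9, 19.6, 16.1 and 28.6, and in MFGRD at 255, 264, 165 and 54.3. In FFGR, ADAMTS17 was at 29.6, 11.1, 48.9 and 27.96, and in FFGRD at 331, 369.7, 319.6 and 93.2. Neither growth-restricted pair overlapped. ADAMTS17 was upregulated by 2.41 ± 0.33 on average (adjusted p = 2.44e-06) and was called in growth-restricted males (3.04) and females (3.19). In controls it was 1.80 in males (adjusted p = 0.0995) and 1.60 in females (adjusted p = 0.223). The difference of the response between growth-restricted and control animals, 1.42 ± 0.67, did not pass (adjusted p = 0.988, unadjusted p = 0.0435 in limma).

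ADAMTS7 and ADAMTS12 form a pair known to cut the cartilage protein COMP. ADAMTS7 was at 62.3 to 578 (median 279) before and 179 to 1108 (median 425) after differentiation and was upregulated by 0.81 ± 0.27 (adjusted p = 0.0234). ADAMTS12 was low, at 0 to 53.7 (median 3.07) and 0.972 to 74.7 (median 14.4), and reached 10 in 2 preadipocyte and 9 differentiated libraries, so it owed its place above the filter to the stage where it was higher. Its change was 1.59 ± 0.57 (adjusted p = 0.0312), and the call was lost in 9 of the 32 fits that left out 1 library (MC 3, MCD 3, MFGR 4, MFGRD 1, MFGRD 3, FC 2, FCD 1, FFGR 2 and FFGRD 2), at changes from 1.34 to 1.86 over the 32. ADAMTS6, the closest relative of ADAMTS10, changed by -1.48 ± 0.60 (adjusted p = 0.0585), ADAMTS18 by 1.55 ± 0.65 (adjusted p = 0.0688) and ADAMTS16 by 0.27 ± 0.61, and none of these was called. ADAMTS6 and ADAMTS18 were called with the replicate block and with the span slope as a covariate.

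Of the ADAMTSL proteins, 2 of 3 tested were downregulated. ADAMTSL1 is a matrix glycoprotein also named punctin. In MC, ADAMTSL1 was at 541, 325, 339 and 160.1, and in MCD at 146, 23.6, 64.7 and 24.3. In FC, ADAMTSL1 was at 382, 67.4, 713 and 651, and in FCD at 32.5, 176, 196 and 66.8. Male controls were apart by stage, and FC replicate 2 brought the female groups into overlap. In MFGR, ADAMTSL1 was at 85.1, 218, 239.7 and 211, and in MFGRD at 86.02, 183, 59.5 and 68.04. In FFGR, ADAMTSL1 was at 681, 52.8, 116 and 359, and in FFGRD at 106, 367, 7.05 and 52.96. The growth-restricted groups overlapped in both sexes. Its mean change was -1.77 ± 0.46 (adjusted p = 0.00364).

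ADAMTSL5, a secreted protein that binds fibrillin, was low. In MC, ADAMTSL5 was at 20.8, 15.1, 19.3 and 19.97, and in MCD at 13.4, 1.46, 5.104 and 1.16. In FC, ADAMTSL5 was at 48.02, 7.66, 16.9 and 11.6, and in FCD at 9.88, 26.9, 4.29 and 10.6. The male groups were apart and the female groups overlapped. In MFGR, ADAMTSL5 was at 9.74, 18.4, 18.4 and 18.9, and in MFGRD at 7.22, 1.68, 6.21 and 3.45. In FFGR, ADAMTSL5 was at 41.9, 1.399, 19.8 and 21.4, and in FFGRD at 3.19, 6.25, 4.71 and 17.2. The same held here, with males apart and females not. Its mean change was -1.34 ± 0.36 (adjusted p = 0.00517). ADAMTSL4, another fibrillin-binding protein, changed by 0.72 ± 0.31 (adjusted p = 0.0791).

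Among the ADAMs with a catalytic zinc site, ADAM15 and ADAM19 were downregulated and ADAM9 was upregulated. ADAM15, a membrane protein that can bind integrins, lies at 111421877 to 111431877 of chromosome 1. In MC, ADAM15 was at 158, 94.5, 169 and 196, and in MCD at 50.5, 79.3, 35.3 and 148. In FC, ADAM15 was at 129, 153, 190 and 98.05, and in FCD at 120.4, 127, 20.5 and 9.16. Both control pairs overlapped, and FCD replicate 4 was the lowest library. In MFGR, ADAM15 was at 222, 126, 57.03 and 160, and in MFGRD at 44.9, 43.6, 34.8 and 36.2. In FFGR, ADAM15 was at 132, 232, 303 and 148, and in FFGRD at 37.1, 30.3, 125 and 42.6. Neither growth-restricted pair overlapped. The mean change was -1.60 ± 0.31 (adjusted p = 1.62e-04), and the growth-restricted females passed on their own (-1.94 ± 0.61, adjusted p = 0.0402).

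ADAM9, ADAM12 and ADAM19 are the meltrins, ADAMs first described in muscle cells. ADAM9 was at 661 to 4384 (median 2819) before and 1062 to 10460 (median 4214) after differentiation, a change of 0.84 ± 0.32 (adjusted p = 0.0460). ADAM19 was at 428 to 5136 (median 2310) and 245 to 2124 (median 1027), a change of -1.03 ± 0.40 (adjusted p = 0.0481). Both calls were marginal, since each was lost in 21 of the 32 fits that left out 1 library, at changes from 0.72 to 1.005 for ADAM9 and from -1.21 to -0.88 for ADAM19. ADAM12, by -1.03 ± 0.44 (adjusted p = 0.0733), was not called.

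The main sheddases were not called. ADAM10, which cuts NOTCH receptors and cadherins, was at 181 to 2115 (median 1417) in preadipocytes and 199 to 1884 (median 1531) in differentiated adipocytes, with a mean change of 0.15 ± 0.37 (95% interval -0.60 to 0.91, adjusted p = 0.800). ADAM17, which releases tumor necrosis factor and ligands of the epidermal growth factor receptor, was at 532 to 2556 (median 1621) and 445 to 1634 (median 1273), with a mean change of -0.27 ± 0.23 (95% interval -0.74 to 0.19, adjusted p = 0.394). ADAM32, which lacks the catalytic site, changed by -0.12.

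**Figure D2:**
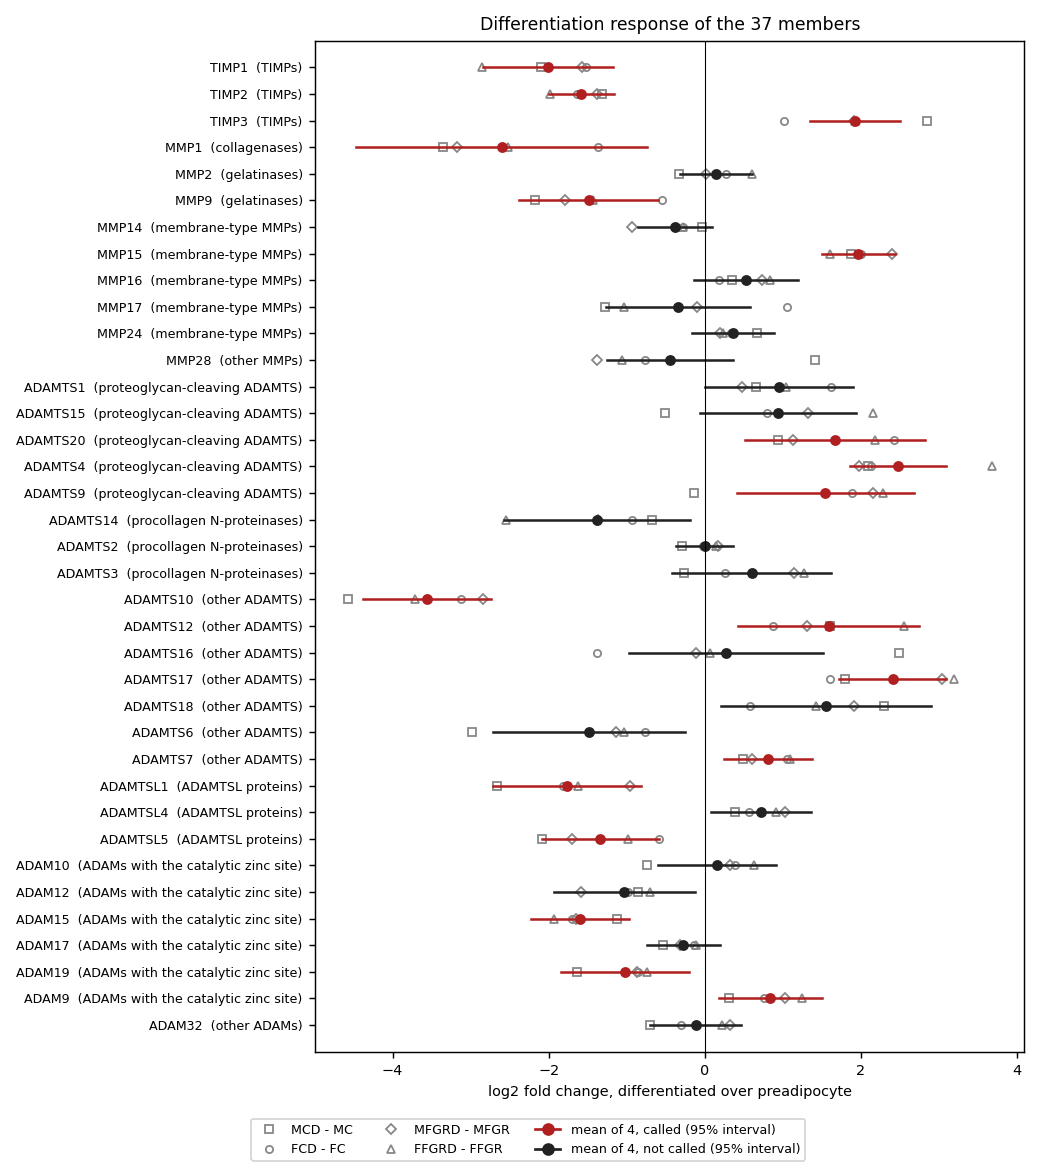
Log2 fold change of each of the 37 members, differentiated over preadipocyte, with grey symbols for the 4 kinds of fetus and a filled symbol with its 95% interval for their mean, red where called. Of the 18 called, 9 lie to the right of 0 and 9 to the left, and TIMP3 stands opposite TIMP1 and TIMP2. Among the 18, MMP9 and ADAMTS12 passed the filter only through the stage where they were higher.

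Taken one kind of fetus at a time, the male controls gave 5 called members, 3 up and 2 down, beside 8.35% of all genes (3.8% up and 4.55% down). The female controls gave 3, 1 up and 2 down, beside 2.52% (1.08% up and 1.44% down). Growth-restricted males gave 5, 3 up and 2 down, beside 5.13% (2.03% up and 3.1% down). Growth-restricted females gave 8, 4 up and 4 down, beside 10.3% (4.33% up and 5.99% down). ADAMTS10, MMP15 and TIMP2 were called in each of the 4, and no member was called upward in 1 and downward in another. The median log2 fold change of the members was -0.30, 0.18, 0.16 and 0.22 in these 4 comparisons, against -0.02, 0.02, 0.06 and 0.02 over all genes. In the mean of the 4 it was 0.14 against 0.03, with 19 members above and 18 below 0.

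The single calls rested on 4 libraries a side, and many were lost when 1 library was left out. Calls kept in each fit that left out 1 library were ADAMTS10, MMP15 and TIMP3 in male controls, ADAMTS17 and MMP15 in growth-restricted males, and ADAMTS10, ADAMTS17, ADAMTS4 and TIMP2 in growth-restricted females. In male controls the count ranged from 3 to 6, TIMP2 was lost without MC 1, 3 or 4 or MCD 1 or 3, and ADAMTS4 without MC 3 or 4 or MCD 2, 3 or 4 (group and replicate number). In female controls the count ranged from 0 without FCD 1 or FCD 3 to 6 without FCD 2. There ADAMTS10 was lost without FC 1 or 3 or FCD 1, 3 or 4, MMP15 without FC 1 or 3 or FCD 1 or 3, and TIMP2 without FC 2 or 4 or FCD 1 or 3. In growth-restricted males the count ranged from 2 to 6, as ADAMTS10 was lost without any 1 MFGR library or MFGRD 1, 2 or 4, TIMP2 without MFGR 1, 2 or 4 or any 1 MFGRD library, and TIMP3 without any 1 MFGR library, MFGRD 1, 2 or 3, FC 4 or FFGRD 1. In growth-restricted females it ranged from 5 to 9, as ADAM15 was lost without FFGR 2 or 3 or FFGRD 1, 2 or 4, TIMP1 without FFGR 1 or 2 or FFGRD 1, 2 or 4, TIMP3 without FFGR 1 or 2 or FFGRD 1 or 2, and MMP15 without FFGR 1 or 3 or FFGRD 4.

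Groups of the 2 stages did not overlap for 11 members in male controls (16.3% of all genes), 4 in female controls (10.0%), 10 in growth-restricted males (11.6%) and 6 in growth-restricted females (11.7%). ADAMTS10 and ADAMTS4 were in all 4 sets.

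Preadipocyte and differentiated libraries with the same replicate number deviated together from their group means in male controls (correlations of 0.16 to 0.61), female controls (0.30 to 0.51) and growth-restricted males (0.39 to 0.67). In growth-restricted females the correlations ran from -0.40 to 0.56. Both libraries had a steep span slope in the pairs MFGR1 with MFGRD1, FC2 with FCD2 and FFGR3 with FFGRD3. The part of the slope in these correlations was not tested. With the replicate number as a block, male controls gave 8 called members beside 14.3% of all genes, the additional ones being ADAM19 (adjusted p = 0.0306), ADAMTS6 (0.0211) and TIMP1 (0.0426), all lower. Female controls then also gave ADAMTS4 (adjusted p = 0.0404), beside 5.59% of all genes. Growth-restricted males gained ADAMTS4 (adjusted p = 0.0424) and ADAMTS9 (0.0439) and lost TIMP3 (0.0665), beside 9.01% of all genes.

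FCD replicate 4, in which ADIPOQ, PLIN1 and FABP4 were low, was part of the fit that chose the 18 called members, so its place among them is a description. For 16 of these it was within the range of the other 15 differentiated libraries. The exceptions were ADAM15, which at 9.16 was below the lowest of them (20.5), and TIMP3, which at 755 was also below the lowest (1193). Without this library the mean comparison called 20 members, 17 of the 18 among them. Female controls then gave 2, beside 2.54% of all genes, with ADAMTS10 lost. Without FFGR replicate 4, the library in which PTPRC, AIF1 and CSF1R were highest, the mean comparison called 17 and growth-restricted females gave 9. The shares over all genes for these 2 counts and for the 20 are not given here, so whether the members moved with all genes cannot be told from them.

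Some members were summed from several annotated transcripts. TIMP1 was read from 2 transcripts in shares of 52.04% and 47.96% before and 61.5% and 38.5% after differentiation, and both were lower in sum. ADAM15 rested on ADAM15-204 for 90.5% of its sum before and 77.2% after differentiation, while ADAM15-207 rose from 1.44% to 17.8% of the sum and was listed at 0 in 15 of the preadipocyte and 11 of the differentiated libraries. ADAM9-202 held 88.1% and 87.6% of ADAM9. These shares are of sums over all libraries of a stage and were not tested.

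The question of growth restriction was asked at each stage over both sexes. In preadipocytes (MFGR and FFGR against MC and FC), limma called 0 of the 37 members and 0% of all genes, and 2 members had an unadjusted p below 0.05 beside 344 of 12737 genes. These were ADAMTS17, lower by -1.12 ± 0.47 (unadjusted p = 0.0256, adjusted p = 0.840 in limma), and MMP24, higher by 0.81 ± 0.36 (unadjusted p = 0.0336, adjusted p = 0.840 in limma). The ADAMTS17 values above show MFGR below MC in most libraries, with MFGR replicate 4 above MC replicate 1. In differentiated adipocytes (MFGRD and FFGRD against MCD and FCD), again 0 members and 0% of all genes were called, and 0 members had an unadjusted p below 0.05 beside 136 genes.

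The intervals show how much these data could have missed. For TIMP2 the 95% interval of the log2 difference was -0.66 to 0.52 in preadipocytes and -0.86 to 0.31 in differentiated adipocytes. For MMP14 it was -0.25 to 1.11 and -0.69 to 0.66. For ADAMTS2, with the narrowest interval of the members, it was -0.53 to 0.51 in preadipocytes, whereas for MMP1 it was -2.97 to 2.29. A change of 2-fold in either direction was therefore outside the intervals given for TIMP2 and ADAMTS2. For MMP14 in preadipocytes a 2-fold increase was inside the interval, and for MMP1 a 2-fold change in either direction was.

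**Figure D3:**
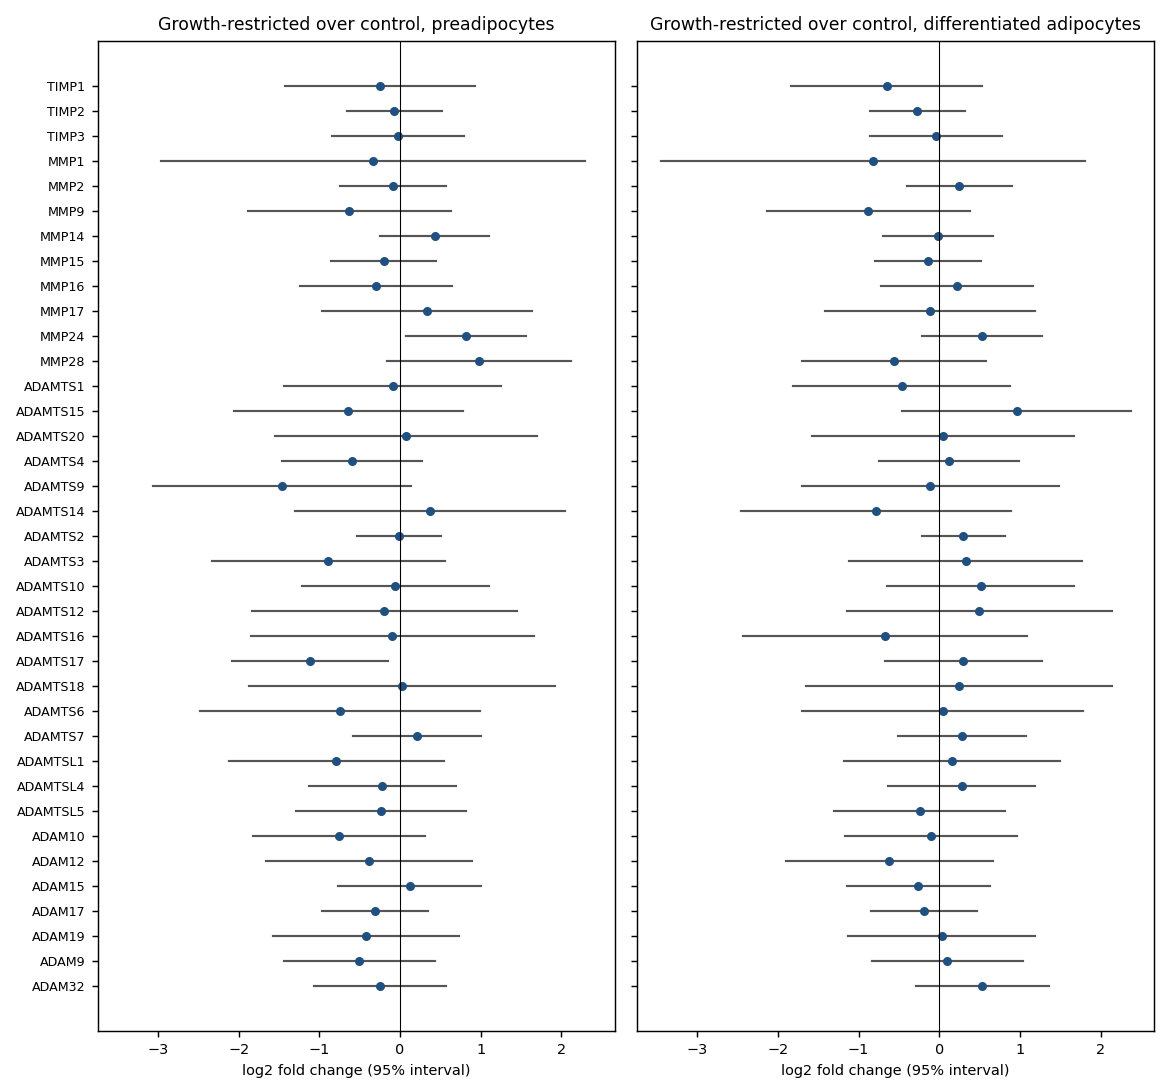
Log2 fold change of growth-restricted over control libraries for the 37 members, in preadipocytes (left) and differentiated adipocytes (right), with 95% intervals. All but ADAMTS17 and MMP24 in preadipocytes have intervals that include 0, and no member was called at either stage.

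Sex was compared in the same way, as male minus female. In preadipocytes 0 members and 0% of all genes were called by limma, and 3 members had an unadjusted p below 0.05 beside 550 genes, with ADAMTS20 higher in males by 2.06 ± 0.79 (unadjusted p = 0.0147 in limma), ADAMTS4 by 0.92 ± 0.42 (0.0383) and MMP2 by 0.75 ± 0.32 (0.0252). The adjusted p was 0.846 for all of these. MMP2 was at 76390, 61130, 89360 and 84240 in MC and at 63080, 24520, 49230 and 57440 in FC. It was at 51020, 83150, 53540 and 123000 in MFGR and at 78180, 25450, 36990 and 46550 in FFGR, and in both pairs the ranges overlapped. After differentiation 0 members and 0% of all genes were called, with 0 members at an unadjusted p below 0.05 beside 159 genes.

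Whether the response to differentiation differed was tested directly. Between growth-restricted and control animals 0 members were called, beside 0% of all genes, and 1 had an unadjusted p below 0.05 beside 132 genes (ADAMTS17, given above). Between males and females 0 members were called, beside 0% of all genes, and 0 had an unadjusted p below 0.05 beside 116 genes. For ADAMTS4, with the response of 3.68 in growth-restricted females against 1.98 in growth-restricted males, the difference between males and females over both growth groups was -0.87 ± 0.60 (95% interval -2.10 to 0.35). For TIMP3 it was 0.91 ± 0.56 (95% interval -0.24 to 2.07).

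The 8 comparisons of single groups gave 0 called members each, beside 0% of all genes. At an unadjusted p below 0.05 in limma there were 2 members in MFGR against MC (ADAMTS17 and MMP24), 1 in FFGR against FC (MMP17), 2 in MFGRD against MCD (ADAMTS10 and MMP28), 0 in FFGRD against FCD, 2 in MC against FC (ADAMTS20 and MMP17), 0 in MFGR against FFGR, 3 in MCD against FCD (ADAMTS10, MMP28 and TIMP3) and 0 in MFGRD against FFGRD. Over all genes these comparisons had 175, 169, 342, 192, 135, 355, 551 and 96 genes at that level, in the same order. ADAMTS10 in MCD stood below MFGRD (by 1.78 in the direction MFGRD minus MCD) and below FCD (-2.23 as MCD minus FCD). MCD replicate 4, at 0, was the lowest library of all.

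The level of many members varied with the span slope described above. Within groups, the correlation of log2 level with the slope was positive for 30 of the 37 members. The share over all genes was not computed, so whether this count is particular to the members cannot be told. The correlation was 0.98 for ADAM10, 0.93 for ADAMTS3 and ADAM9 and 0.92 for ADAM17, and it was -0.67 for TIMP2 and -0.64 for TIMP1. The points share their library, and the slope itself is computed from all transcripts, so these are descriptions over 32 libraries. ADAM10 in growth-restricted males shows the pattern, at 279, 1416, 1532 and 1418 in MFGR and 422, 1506, 1792 and 1847 in MFGRD, where replicate 1 was low at both stages. In growth-restricted females ADAM10 was at 1076, 181, 483 and 1793 in FFGR and 1556, 1737, 199 and 1817 in FFGRD, and the 3 lowest values came from libraries with a steep slope. Without the 9 libraries with a steep slope the mean comparison called 21 members, 16 of the 18 among them, and ADAMTS12 (1.403) and ADAMTS20 (1.54) were lost with changes of similar size. The number of all genes called stayed within 1.5 times of that in the main fit. What underlies the slope was not tested.

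**Figure D4:**
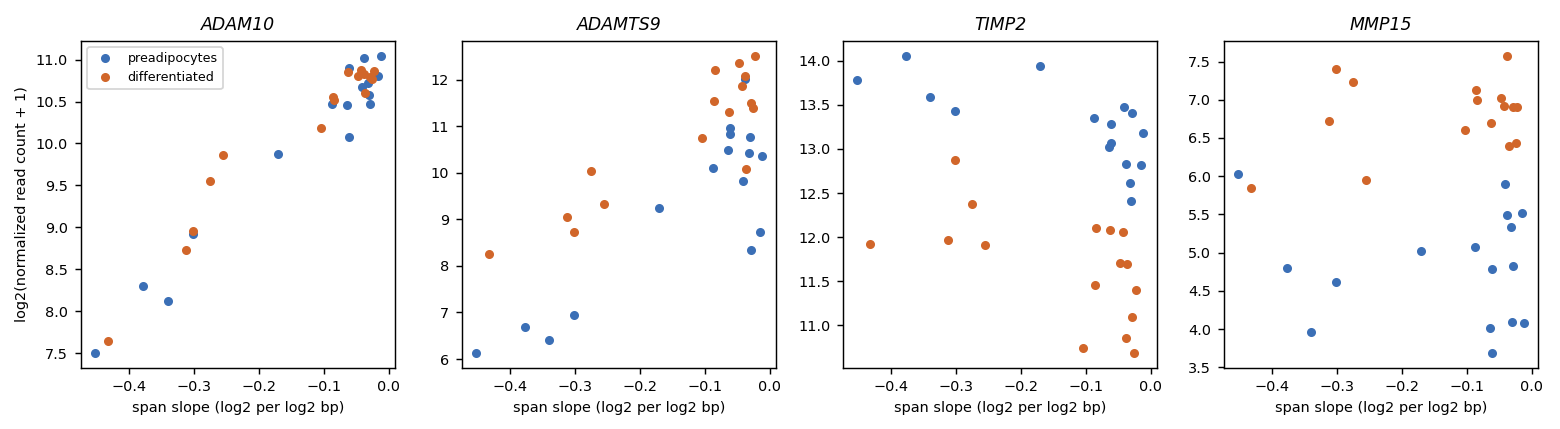
Log2(normalized read count + 1) of ADAM10, ADAMTS9, TIMP2 and MMP15 in the 32 libraries against the span slope of the library, preadipocytes in blue and differentiated adipocytes in orange. ADAM10 lies low in the libraries with the steepest slopes at both stages, while most differentiated libraries lie below the preadipocytes for TIMP2 and above them for MMP15.

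Members of the wider machinery of matrix turnover were read from a list of 54 other genes, of which 48 could be tested. In the mean of the 4 differentiation comparisons 6 were upregulated and 20 downregulated, with a median log2 fold change of -0.55 against 0.03 over all genes, beside 27.2% of all genes called. In the plasminogen system 3 of 6 were downregulated. PLAU, the urokinase that turns plasminogen into plasmin, was at levels from 351 to 1321 before and from 40.9 to 348 after differentiation. The stages of PLAU did not overlap, and it changed by -2.97 ± 0.24 (adjusted p = 3.84e-10), called in each of the 4 kinds of fetus. Its receptor PLAUR changed by -1.23 ± 0.40 and the secreted serpin SERPINF1 by -3.85 ± 0.53.

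Among activators and broad inhibitors, FURIN and PCSK5, proprotein convertases that activate membrane-type MMPs, ADAMTS enzymes and ADAMs, were upregulated. PCSK6, another convertase of the list, changed by -0.09 ± 0.18 without a call. FURIN was at levels from 178 to 625 before and from 447 to 2135 after differentiation. It changed by 1.65 ± 0.20 (adjusted p = 2.75e-07) and was called in all 4 kinds of fetus. PCSK5 changed by 1.22 ± 0.33, the plasma protease inhibitor A2M by -1.46 ± 0.46, and RECK, a membrane-anchored MMP inhibitor, by 0.04 ± 0.29 without a call. Of the cathepsins and cystatin C, 5 of 7 were downregulated and none upregulated, led by CTSK, a collagen-cutting cathepsin (-2.06 ± 0.39, adjusted p = 1.34e-04), and CTSZ (-1.48 ± 0.17, adjusted p = 1.77e-07).

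The procollagen C-proteinase BMP1 was at levels from 2093 to 3929 before and from 2180 to 4316 after differentiation, with a change of 0.02 ± 0.12 that was not called. Its relative TLL1 (-1.33 ± 0.42) and the enhancer proteins PCOLCE (-0.73 ± 0.24) and PCOLCE2 (-2.79 ± 0.56) were downregulated. Of 6 serine proteases 4 were downregulated. These were FAP, a marker of activated fibroblasts, at levels from 5209 to 24550 before and from 462 to 8840 after differentiation (-3.24 ± 0.30, adjusted p = 3.18e-09), the secreted HTRA3 (-3.25 ± 0.35), PRSS23 (-1.44 ± 0.23) and PRSS35 (-5.28 ± 0.63, adjusted p = 2.36e-07).

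Of the substrates of ADAMTS enzymes 1 of 5 tested passed, RELN at low levels from 0 to 15.9 before and from 0 to 60.8 after differentiation (1.86 ± 0.47). The proteoglycan VCAN changed by -0.02 ± 0.63 without a call. Of fibrillins and their partners, LTBP1 was upregulated (1.94 ± 0.49) and LTBP2 (-3.68 ± 0.59) and LTBP3 (-2.88 ± 0.21, adjusted p = 1.37e-10) were downregulated. LTBP1 and LTBP3 tether latent transforming growth factor beta to the matrix. FBN1, the fibrillin itself, changed by -0.17 ± 0.61 without a call. Among partners and shed ligands of ADAM10 and ADAM17, the growth factors AREG (3.06 ± 0.51) and TGFA (1.34 ± 0.48) were upregulated. AREG was at 0 to 4.32 before and 2.12 to 150 after differentiation, and TGFA at 0 to 5.34 and 0 to 32.7. Both passed the filter through differentiated libraries alone, so an increase was the direction they could most readily show. EREG (-2.31 ± 0.53) and the tetraspanin TSPAN14 (-0.60 ± 0.17) were downregulated.

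**Figure D5:**
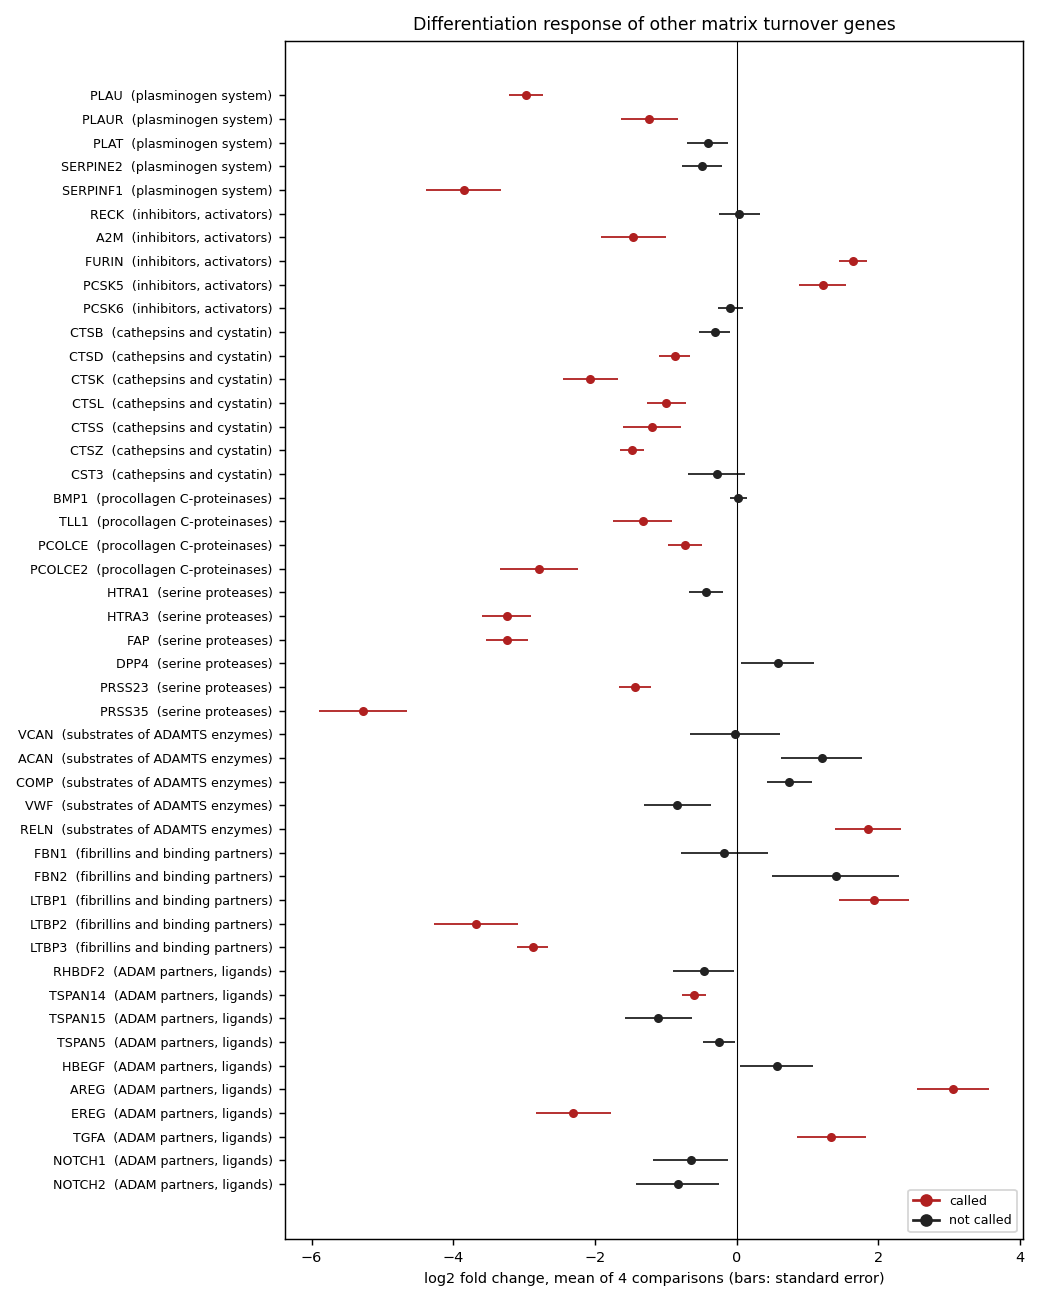
Mean log2 fold change with differentiation for the other genes of matrix turnover that could be tested (1 of the 48 is not shown), with bars for the standard error and red for called genes. Most called genes lie to the left of 0 (20 of 26), among them PLAU, FAP and LTBP3, and FURIN and LTBP1 lie to the right.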

How the data were processed

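RNA-seq was carried out on 32 libraries of fetal sheep perirenal cells in 8 groups of 4. According to the methods of the study, the authors removed reads of a Phred score under 34. Transcript abundance was then estimated by Salmon, using Ensembl transcripts for Oar_rambouillet_v1.0, and the authors scaled it by median ratios in DESeq2. FastQC 0.11.9 is named in the submitters' processing notes. The deposited values are such normalized read counts per transcript, a signal that is not whole reads. The deposited table also holds the authors' group means, fold changes, p-values and adjusted p-values, which were not used.

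Groups were taken from the sample labels. Values were summed per gene, and genes with at least 10 in at least 4 of 32 libraries were tested, 12737 of 21271. Because the values are normalized, log2(value + 1) was fitted in limma 3.58.1 (R 4.3.3) with 1 mean per group over all 32 libraries and a mean-variance trend. Contrasts were two-sided, adjusted by the Benjamini-Hochberg method over all genes tested, and called at an adjusted p below 0.05 with a change above 1.5-fold. A fold change on this scale understates the change of low genes. Python 3.11.15 (pandas 2.3.3, numpy 2.4.6, matplotlib 3.10.9) was used for sums and plots. The scripts were tested on simulated data.

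Members and lists were chosen with earlier results of these data known. Named genes were every called member, with the value in each library for the 12 with the smallest adjusted p in the mean comparison, and the TIMPs, MMP2, MMP14, ADAM10 and ADAM17 in any case. MMP17, MMP24, MMP28 and other members without a call were named after their values were seen. The values of 1 gene among the other matrix turnover genes are not reported here. The replicate numbers were checked as pairs by the correlation of deviations from the group means. All 4 same-numbered pairs were over 0.1 in MC, FC and MFGR (from 0.16 to 0.67), and 3 of 4 in FFGR (from -0.40 to 0.56). The pairing there rests on the data, as the labels do not state it. Alternatives were another pseudocount, normalizations, filters, fits on the compared libraries alone, a replicate block, library weights, the span slope as a covariate, the largest transcript, and each library left out in turn. Leaving out the 9 libraries with a steep span slope was added after seeing the data. The estimated depth per library was 7.79 to 21.3 M reads (M, mega). In no pair of libraries was the share of identical values above 0 more than 0.0%, rounded.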

Additional observations from a re-analysis of the deposited data

Results flagged for a closer look

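Within groups of 4 libraries, 13 of 176 groups over 22 named members held 1 library far from the other 3, by Dixon's test at the 95% level. About 1 in 20 groups, or 8.8 here, are expected to do so by chance. In MFGR replicate 1, ADAM10 was at 278.9 (others 1416 to 1532), ADAM17 at 640.8 (1561 to 1831), ADAMTS20 at 1.396 (22.4 to 26.2), ADAMTSL1 at 85.1 (211 to 239.7) and ADAMTSL5 at 9.74 (18.4 to 18.9). ADAM10 was also low in MFGRD replicate 1, at 422.3 (others 1506 to 1847), and in FFGRD replicate 3, at 199.3 (1556 to 1817). ADAM17 was low in FC replicate 2, at 828.9 (1609 to 1792). In FCD replicate 2, MMP2 was at 21690 (67260 to 84850) and MMP15 at 60.8 (119 to 126). All 5 of these libraries are among the 9 with a steep span slope, and the part of the slope in these values was not tested.

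The other 3 lie in libraries without a steep slope. MMP1 was at 2288 in MFGR replicate 4 (others 17.3 to 34.8), TIMP1 at 20550 in MC replicate 4 (9885 to 10480), and ADAMTS17 at 93.2 in FFGRD replicate 4 (319.6 to 369.7).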

How the results depend on the processing

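The mean comparison called 18 members and kept its count within 1.5 times under every alternative except the filter of 20 CPM in 3 libraries (10 called, of 24 members tested). With 1 library left out it called 15 to 20. Of the 22 members refitted one by one in the mean comparison, 0 changed direction. The adjusted p in limma of ADAMTS10 stayed between 4.4e-09 and 3.86e-06, of MMP15 between 3.82e-08 and 6.59e-06, of ADAMTS4 between 1.45e-08 and 4.82e-05, and of TIMP2 between 2.69e-09 and 4.41e-06. ADAM9 and ADAM19 were lost with scaling to library totals, with no filter and with the stricter filter, and ADAM9 also with the largest transcript. ADAMTS12 and ADAMTS20 were lost with the largest transcript and without the 9 libraries with a steep slope, ADAMTS20 also with library weights, ADAMTS9 with the largest transcript, and MMP1 without MFGR replicate 4. The change of ADAMTS9 was larger with the largest transcript (2.15), those of ADAMTS12 (0.67) and ADAMTS20 (0.84) smaller. Members gained in the mean were ADAMTS6, ADAMTS14 and ADAM12 with quantile normalization, weights, block and covariate and without the steep libraries, ADAMTS15 with the last 4 of these, ADAMTS18 with block, covariate, scaling to totals and the largest transcript, ADAMTSL4 with block and covariate, and ADAMTS3 with the covariate and without the steep libraries. The causes were not tested.

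Counts in single kinds of fetus moved more. With library weights there were 13 in male controls, 8 in female controls and 14 in growth-restricted males. With the span slope as a covariate there were 10, 8 and 10 in these and 14 in growth-restricted females. Fits on the compared libraries alone gave 0 in female controls (31 members tested, 50 genes called) and 4 in growth-restricted females. Scaling to library totals and no filter each gave 3 in growth-restricted males, and female controls gave 6 without the 9 libraries with a steep slope. With 1 library left out the counts ran from 3 to 6 in male controls, 0 to 6 in female controls, 2 to 6 in growth-restricted males and 5 to 9 in growth-restricted females. The replicate block gave 8 in male controls, and 12 in growth-restricted females and 24 in the mean. The pairing of FFGR with FFGRD was uncertain, as 3 of 4 same-numbered pairs were over 0.1 and 2 of 4 correlated best with their own. The block gave 0 calls for the differences in response, and every other alternative gave 0 for growth restriction, sex and response.

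Over all genes, male controls had 1063 calls, and 576 with the stricter filter, 1824 with the block, 2418 with weights and 2174 with the covariate. Female controls had 321, and 181 with the stricter filter, 50 in their own fit, 712 with the block, 1999 with weights, 1466 with the covariate and 733 without the steep libraries. Growth-restricted males had 654, and under the same 6 alternatives 375, 393, 1147, 1932, 2038 and 1106. Growth-restricted females had 1315, and 683 with the stricter filter, 310 in their own fit, 2185 with the block and 2584 with the covariate. The mean had 3466, and 1721 with the stricter filter.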
